A study of Homo sapiens with 11 samples.

Results

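The first 30 Mb of chromosome 6 (hg38) form the end of the short arm, with the forkhead genes FOXF2 and FOXC1 near the tip and the large histone gene cluster at 26 to 28 Mb. All CTCF summits below 30 Mb were taken, 480 of 70966 in the 3 CTCF lists. The segment was chosen by its measured counts: it held few ORC2 deletion and ORC2 rescue summits for its number of WT summits. Counts, shares and values from the same lists are therefore descriptions and carry no test.

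CTCF was mapped by CUT&RUN, in which an antibody-tethered nuclease releases the DNA around a bound protein, in the human colorectal cancer line HCT116 lacking p53 (HCT116 p53-/-). The ORC2 deletion cells (ORC2-/-) were 1 clone made with CRISPR/Cas9 in that line, the rescue cells were clonally selected after they had been given an ORC2 plasmid, and the WT cells were the parental line. All 3 genotypes thus lack p53, and a clone cannot be told apart from its genotype. Each genotype had 2 CTCF libraries but 1 summit list that names no replicate, so no difference below has a replicate check and the depth of the libraries is unknown.

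CTCF is a zinc finger protein that binds a long DNA motif, stops cohesin as it extrudes loops and so helps to bound and insulate chromatin domains. ORC2 is a subunit of the origin recognition complex, which marks origins and loads the replicative helicase. The histone cluster on the short arm of chromosome 6 supplies most of the replication-dependent histones and lies among tRNA, zinc finger and butyrophilin genes.

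Of the 462 promoter windows of the segment (250 bases before to 50 after a start, RefSeq, GRCh38.p14), 13 held a summit, and 2 of these also held the core letters of the CTCF motif on either strand. The letters searched were CC, AG and GGC in this order, with 3 free bases after CC and 2 after AG. The last summit of the segment lies at chr6:28383686, and promoter windows beyond it could hold none. Over all 35116 promoter windows, 10.6% held these letters. FAM50B, an imprinted gene, had them 3 times, and its promoter carried a summit in the deletion list and in neither of the others. ZNF322, a zinc finger gene at the edge of the histone cluster, had them once and carried a summit in the deletion and WT lists. The stretches below are shown because they are the motif matches in promoters with a summit. Capitals mark the match, overlapping matches were not found among them, and a match is not a measured binding site.
FAM50B, chr6:3849258-3849287, plus strand: cccgcctccCCGCCAGGGGGCgatccacct
FAM50B, chr6:3849341-3849370, plus strand: cccgcctccCCGCCAGGGGGCgcaccgcct
FAM50B, chr6:3849169-3849198, plus strand, match on the other strand: gccagaagcGCCTCCTCCAGGatcctcccc
ZNF322, chr6:26659905-26659934, minus strand: tcgcctcccCCCGCAGCCGGCcttccactg

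The next stretches are centred on a summit base, in capitals, at starts with different outcomes. LYRM4, needed for iron-sulfur cluster assembly, had a promoter summit in WT and in neither other list. EDN1, the precursor of the vasoconstrictor endothelin, had a site in all 3 lists, with 1 deletion, 2 rescue and 2 WT summits. The deletion summit and the stronger WT summit, both shown here, lay in the windows of 2 different starts. ZSCAN31, a SCAN domain zinc finger gene, had a site in all 3 lists close to the segment's upper end. None of these promoter windows held the letters searched, which says only that they are not in those windows.
LYRM4, WT summit, chr6:5261083-5261107, minus strand: cgccaggagcttGgctggatgcacg
EDN1, deletion summit, chr6:12289895-12289919, plus strand: tttgactgagacTagaatcggagag
EDN1, WT summit, chr6:12290196-12290220, plus strand: ttagcagtgattTcctttcgggcct
ZSCAN31, WT summit, chr6:28356253-28356277, minus strand: aaggacattgctGggcaactaggtc

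The lists held 189 ORC2 deletion, 98 rescue and 193 WT summits in the segment. In the neighbouring stretch, from 30 to 60 Mb, they held 386 deletion, 271 rescue and 236 WT summits. The ratio of deletion to WT summits was 0.979 (95% interval 0.802 to 1.20) in the segment and 1.64 (1.39 to 1.92) in this neighbour. The ratio of rescue to WT was 0.508 (0.398 to 0.647) in the segment and 1.15 (0.965 to 1.37) in the neighbour. With the 3 lists cut to equal length, deletion over WT was 0.482 in the segment and 1.11 in the neighbour. All intervals here cover counting error only. The IgG lists, the background of the assay, held 34 deletion, 33 rescue and 17 WT summits in all and none on chromosome 6. Rescue had 1 IgG library, while deletion and WT had 2 each.

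**Figure D1:**
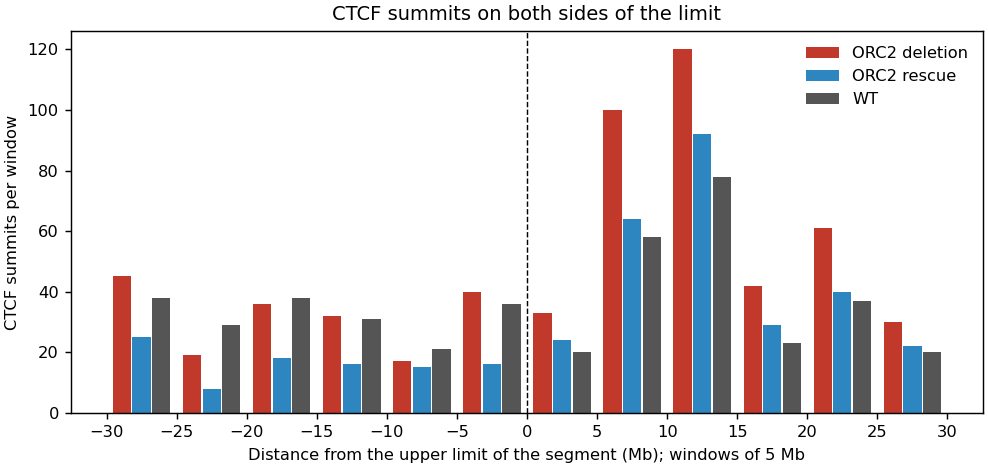
CTCF summits per 5 Mb window over the first 60 Mb of chromosome 6, for ORC2 deletion, rescue and WT, against the distance in Mb from the segment's upper limit (negative inside the segment). The 3 lists hold 189, 98 and 193 summits inside the segment and 386, 271 and 236 in the neighbour.

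The low ratios were seen in each 10 Mb of the segment, while single windows of 1 Mb varied. The plot of summits by window shows windows of 5 Mb. Across the genome, 274 bins of 10 Mb held at least 20 WT summits. The segment's 3 bins, from 0 to 10, 10 to 20 and 20 to 30 Mb, had deletion to WT ratios of 0.955, 0.986 and 1.00, the lowest 3 of the 274, with the last tied with a bin of X at 50 to 60 Mb. Of all bins, 0.730% had fewer deletion than WT summits, and both of these were in the segment. Their rescue to WT ratios of 0.493, 0.493 and 0.544 were again the lowest 3, where 20.1% of all bins had fewer rescue than WT summits. The medians of the 271 other bins were 1.63 for deletion over WT and 1.10 for rescue over WT.

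**Figure D2:**
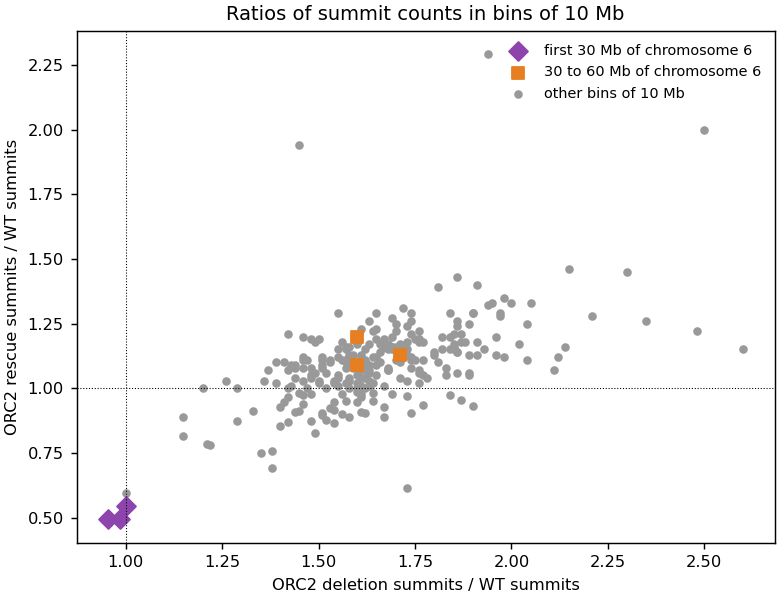
Each point is a 10 Mb bin with at least 20 WT summits, placed by its ratio of deletion to WT summits and of rescue to WT summits. The 3 bins of the segment lie at 0.955, 0.986 and 1.00 for deletion and at 0.493, 0.493 and 0.544 for rescue.

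A WT summit was counted as kept where another list had a summit within 500 bp. Of the 193 WT summits of the segment, 131 were kept in ORC2 deletion, 67.9% (61.0 to 74.1), and 62 were missing. Genome-wide, 10.5% of WT summits were missing in deletion. In rescue, 79 of the 193 were kept, 40.9% (34.2 to 48.0), and 114 were missing, where 23.8% were missing genome-wide. In the neighbour, 219 of 236 WT summits were kept in deletion, 92.8% (88.8 to 95.5), and 196 in rescue, 83.1% (77.7 to 87.3). The segment's bins from 0 to 10, 10 to 20 and 20 to 30 Mb kept 59.7%, 78.3% and 64.9% in deletion. These were ranks 2, 14 and 3 from the lowest of the 274 bins, so other bins kept less than the middle one. In rescue they kept 38.8%, 42.0% and 42.1%, at ranks 1, 3 and 4. The bin of X at 50 to 60 Mb was the lowest in deletion, with 56.8%, and had rank 2 in rescue, with 40.5%.

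Summits without a WT summit also took a smaller share in the segment, with intervals that overlapped the neighbour's for rescue. For deletion the order turned at −log10 q of at least 10, with 16.3% in the segment and 7.32% in the neighbour. Of the 189 deletion summits, 59 had no WT summit, 31.2% (25 to 38.1), against 43.3% (38.4 to 48.2) in the neighbour and 45.2% genome-wide. Of the 98 rescue summits, 19 had none, 19.4% (12.8 to 28.3), against 27.7% (22.7 to 33.3) in the neighbour and 30.2% genome-wide. Between the 2 edited lines, 107 of the 189 deletion summits had no rescue summit, 56.6%, where 40.1% had none genome-wide. Of the 98 rescue summits, 15 had no deletion summit, 15.3%, where 10.4% had none genome-wide.

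Joining summits of any list at distances of up to 500 bp gave 258 sites in the segment and 422 in the neighbour. Present in all 3 genotypes were 71 sites of the segment, 27.5% (22.4 to 33.3), where 40.6% of all sites genome-wide were. In deletion and WT but not in rescue were 59 sites, 22.9%, where 8.43% were genome-wide. In WT alone were 55 sites, 21.3%, where 4.49% were genome-wide. In the neighbour, 25 of 422 sites were in deletion and WT only and 14 in WT alone. The remaining sites of the segment were 47 in deletion alone (27.3% genome-wide), 11 in deletion and rescue (13.0%), 8 in rescue alone (5.00%) and 7 in rescue and WT (1.18%).

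By windows of 5 Mb the share of WT summits kept was uneven. From 5 to 10 Mb, 13 of 29 WT summits were kept in deletion, 44.8% (28.4 to 62.5), and 7 in rescue, 24.1% (12.2 to 42.1). From 20 to 25 Mb, 10 of 21 were kept in deletion, 47.6% (28.3 to 67.6), and 9 in rescue, 42.9% (24.5 to 63.5). The other 4 windows of the segment kept 71.1% to 80.6% in deletion and 41.7% to 50.0% in rescue. The 6 windows of the neighbour kept 90.0% to 94.9% in deletion and 75.7% to 86.2% in rescue, so each stood above every window of the segment in both lists.

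**Figure D3:**
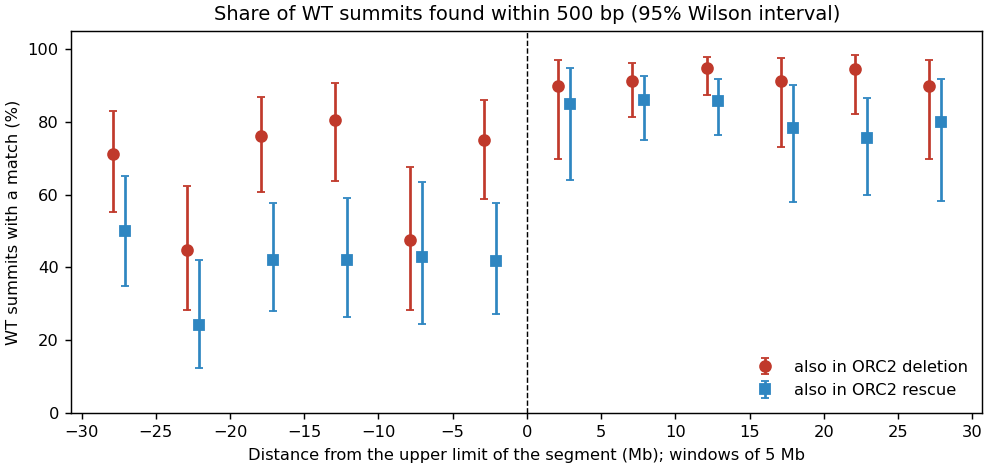
Share of WT summits with a summit within 500 bp in ORC2 deletion and in rescue, per 5 Mb window, against distance from the segment's upper limit, with 95% Wilson intervals. Windows of the segment lie between 44.8% and 80.6% for deletion and between 24.1% and 50.0% for rescue, and those of the neighbour at 90.0% or more and 75.7% or more.

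Some of the missing summits stood next to each other. In deletion, 7 consecutive WT summits were missing from chr6:5214739-6315945, and in rescue 11 from chr6:5030825-6222306. This stretch holds LYRM4, FARS2, the mitochondrial phenylalanyl-tRNA synthetase, NRN1, which encodes neuritin, and F13A1, a subunit of coagulation factor XIII. LYRM4 had 6 sites, of which 4 had a deletion summit, 0 a rescue summit and 6 a WT summit. Inside FARS2, WT summits with values of 4.32 and 8.98 were missing from both other lists, the first of them being the summit in the LYRM4 promoter shown above. The other 2 sites, with values of 3.81 and 4.93, were in the deletion list alone.

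A second stretch, chr6:21341134-23424829, held 5 consecutive WT summits with no match in either edited line. The strongest of them, with a WT value of 8.17, lay 4284 bp from SOX4, a transcription factor of the SOX family. The deletion list had its own summit 6156 bp from SOX4, with a value of 2.04. Runs of 5 or more missing WT summits numbered 3 in the segment and 0 in the neighbour for deletion, and 7 in the segment and 0 in the neighbour for rescue. On the other chromosomes together there were 2 such runs for deletion, the longer of 6 summits, and 29 for rescue, the longest of 10. Chromosome 6 beyond 60 Mb had 0 for deletion and 1 for rescue. The segment's deletion run at chr6:26223937-26596583 had 5 summits. Its last WT summit had a deletion summit at chr6:26596030, just beyond 500 bp, so a wider matching distance would take this run below 5.

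A summit's value is its −log10 q from peak calling, which is not scaled between lists. Kept WT summits had higher WT values than missing ones. In the segment the median WT value was 7.64 for the 131 kept in deletion and 4.03 for the 62 missing. It was 9.69 for the 79 kept in rescue and 5.08 for the 114 missing. This order was not particular to the segment. The neighbour had 7.14 for kept and 3.09 for missing in deletion, and 7.45 and 4.37 in rescue. All WT summits outside the segment had 6.64 and 3.02 in deletion, and 7.17 and 3.67 in rescue. WT summits of the segment were of ordinary strength, with a median at percentile 51.8 of the WT list, and at 55.1 in the neighbour.

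The WT list was split by value into 4 classes of equal size. Within each class, fewer summits were kept in the segment than in the neighbour. In the weakest class, 19 of 50 segment summits were kept in deletion, 38.0% (25.9 to 51.8), and 5 in rescue, 10.0% (4.35 to 21.4). The neighbour kept 73.2% (58.1 to 84.3) and 53.7% (38.7 to 67.9) of that class in deletion and in rescue. In the strongest class, 46 of 51 segment summits were kept in deletion, 90.2% (79.0 to 95.7), and 40 in rescue, 78.4% (65.4 to 87.5). The neighbour kept 74 of 74 and 72 of 74 of that class, 100% and 97.3%.

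**Figure D4:**
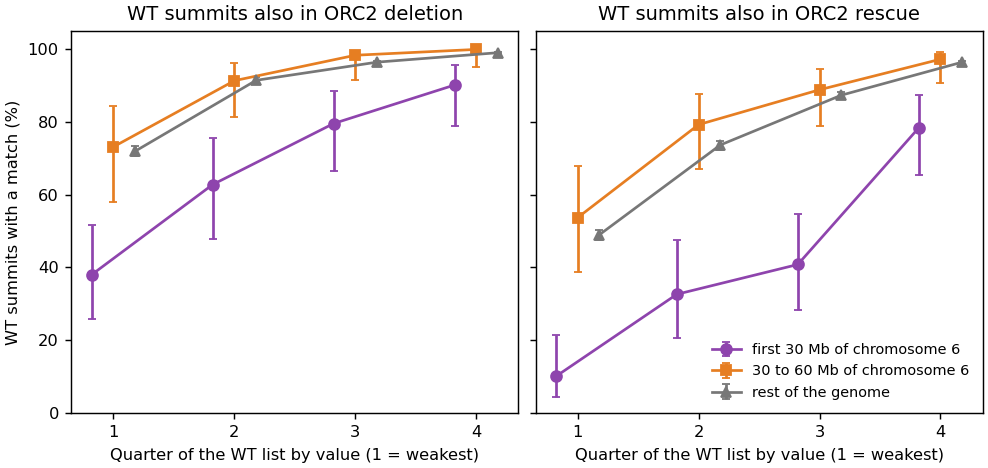
Share of WT summits kept in ORC2 deletion and in rescue by class of the WT list's values (4 classes of equal size), for the segment, the neighbour and the rest of the genome, with 95% Wilson intervals. In the segment the share runs over 38.0%, 62.8%, 79.6% and 90.2% for deletion and over 10.0%, 32.6%, 40.8% and 78.4% for rescue, from the weakest class to the strongest.

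Within the edited lists, the summits of the segment ranked low. Each value was turned into its percentile within its own list, of 31112 deletion, 20810 rescue or 19044 WT summits, and regions were set side by side within a list, since ranks from lists of unequal length show no change between them. In the deletion list the summits of the segment had a median percentile of 37.9 and those of the neighbour 54.6. In the rescue list the medians were 36.5 in the segment and 54.8 in the neighbour, and in the WT list 51.8 and 55.1. The gap between segment and neighbour was also seen at shared sites. At the 130 sites of the segment and 219 of the neighbour in deletion and WT, the median percentile in the deletion list was 45.6 in the segment and 75.6 in the neighbour. In the WT list the same sites had medians of 62.8 in the segment and 58.9 in the neighbour. At the 78 sites of the segment and 197 of the neighbour in rescue and WT, the median in the rescue list was 46.7 in the segment and 65.6 in the neighbour. In the WT list these sites had medians of 75.4 in the segment and 61.3 in the neighbour.

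**Figure D5:**
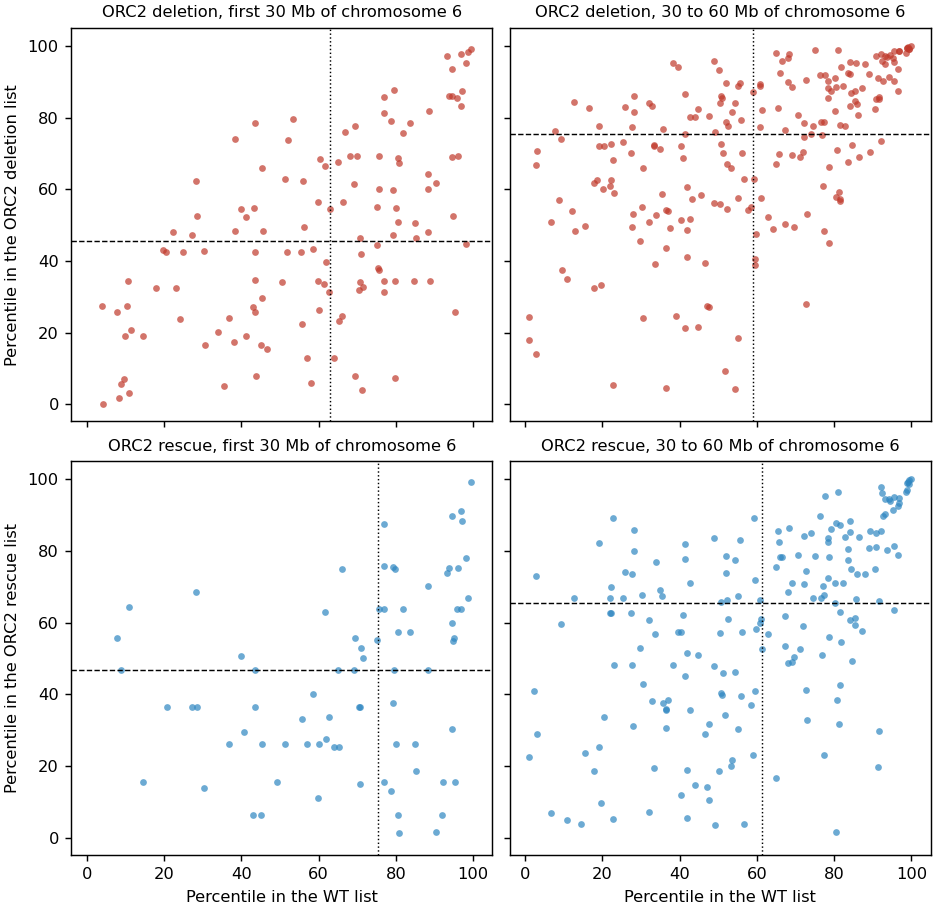
Percentile in the ORC2 deletion list and in the rescue list against percentile in the WT list, for sites of the segment and of the neighbour present in both lists, with each axis's median as a dashed (edited list) or dotted (WT list) line. The dashed medians lie at 45.6 in the segment and 75.6 in the neighbour for deletion, and at 46.7 and 65.6 for rescue.

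The site with the highest value of the segment in each list was found in all 3 genotypes. Inside DCDC2, which encodes a doublecortin domain protein that binds microtubules, the values at chr6:24283221-24283261 were 53.3 in deletion, 52.8 in rescue and 48.2 in WT. At chr6:16331659-16331731 inside ATXN1, the ataxin-1 gene, they were 16.8 in deletion, 17.1 in rescue and 23.1 in WT. A site 41227 bp from FOXF2, a forkhead transcription factor, had 19.3 in deletion, 15.3 in rescue and 24.2 in WT. The DCDC2 site stood at percentile 99.1 of the deletion, 99.4 of the rescue and 99.5 of the WT list. Other sites of high WT value were missing from 1 or both edited lists and are given below.

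Some shared sites near the top of the WT list were not near the top of the edited lists. They were picked by their WT value, so their lower ranks in the edited lists show no change at these sites. At chr6:13336496-13336552, 8001 bp from a readthrough transcript of TBC1D7, whose product belongs to the tuberous sclerosis complex, the values were 7.23 in deletion, 11.1 in rescue and 29.0 in WT, or percentiles 44.7, 78.1 and 98.2. Inside PXDC1 they were 4.83 in deletion, 3.32 in rescue and 19.6 in WT, or percentiles 25.7, 15.4 and 95.3. At SMIM13, a small membrane protein gene, they were 12.0 in deletion, 10.5 in rescue and 21.1 in WT.

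Of the 51 WT summits of the segment in the strongest of the 4 value classes of the WT list, 5 were missing in deletion. The strongest, at chr6:20550504 inside CDKAL1, a tRNA-modifying enzyme gene, had a WT value of 36.5 (percentile 98.9) and no summit in deletion or rescue. A neighbouring site inside the same gene, at chr6:20564222, had 7.76 in deletion, 9.45 in rescue and 13.7 in WT. The other 4 were also in rescue. They lay in RPP40, a subunit of RNase P (7.26 in rescue, 19.2 in WT), in F13A1 (3.32 in rescue, 16.1 in WT), 12160 bp from TRIM38, a ubiquitin ligase gene (2.45 in rescue, 16.0 in WT), and in SLC22A23, a transporter gene (8.34 in rescue, 10.0 in WT).

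These 4 sites belonged to the authors' deposited down list, which had 8 of its 364 regions in the segment. Of the 193 WT summits, 8 lay in that list, 4.15% (2.12 to 7.96), where 1.92% of WT summits did genome-wide. The other 4 regions lay inside ATXN1 (3.32 in rescue, 6.10 in WT), inside KIAA0319 (4.55 in rescue, 5.29 in WT), 5802 bp from CDKAL1 (4.20 in rescue, 9.34 in WT, with summits over 500 bp apart) and at chr6:8195424, with no protein-coding gene within 50 kb (5.21 in rescue, 3.58 in WT). Rescue held the site in these regions because the down list is composed that way.

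In rescue, 11 of the 51 WT summits of that class were missing, CDKAL1 among them, and the other 10 were in deletion. IRF4, a transcription factor of lymphocytes, had 28.5 in deletion and 27.5 in WT, at percentiles 95.4 and 98.0 of those lists, and no rescue summit. STMND1, 36354 bp from its site, had 16.1 in deletion and 13.8 in WT. KIF13A, a kinesin gene, had 12.0 in deletion and 9.78 in WT. TMEM14B had 10.8 in deletion and 13.6 in WT, and MYLK4, a kinase gene 28914 bp from its site, had 5.86 in deletion and 13.9 in WT. The rescue list had no summit at any of these 5 sites.

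Sites without a WT summit were led by 14.2 in the deletion list, at chr6:27796154, 222 bp from the tRNA gene TRQ-TTG3-3. Inside GMDS, whose product acts on the path from GDP-mannose to GDP-fucose, the deletion list alone had values of 11.9 and 7.65. Over its 5 sites there were 4 deletion, 2 rescue and 1 WT sites. Of the 189 deletion summits, 48 lay in the authors' deposited up list, 25.4% (19.7 to 32.0), where 30.9% did genome-wide. BMP6, a BMP ligand gene, had a site 3107 bp away with 11.1 in deletion and 6.22 in rescue and none in WT. Inside ATXN1 another such site had 10.5 in deletion and 4.82 in rescue.

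Protein-coding genes lay within 50 kb of 206 of the 258 sites, and 99 sites lay inside one. This gave 96 genes with a site, of 227 in the segment, which reaches beyond its last summit into a stretch that was not analysed. Of the 87 genes with a WT site, 55 also had a deletion and a rescue site, 14 had no deletion site, 29 had no rescue site and 11 had neither. Of all 9420 genes with a WT site in the genome, 87.3% had both, 3.69% had no deletion site, 11.6% had no rescue site and 2.57% had neither. In the neighbour, 3 of 123 such genes had no deletion site and 6 had no rescue site. Genes of the segment with neither included MYLIP, a ubiquitin ligase gene, NOL7, SSR1, a subunit of the translocon-associated complex, and SERPINB9, an inhibitor of granzyme B. Their WT summits had low values, of 3.13, 3.54, 3.06 and 1.71 in this order. A site counted for only 1 gene, and each of these genes had a site of all 3 lists within 50 kb that counted for another gene. ATXN1 had the most sites, 12, of which 10 were in deletion, 6 in rescue and 10 in WT. CARMIL1, a regulator of actin capping, had 5, of which 4 were in deletion, 4 in rescue and 5 in WT. Of the segment's WT summits, 20 lay within 1 kb of a gene start, 10.4% (6.81 to 15.5). That share was 9.92% (5.89 to 16.2) for those kept in deletion and 11.3% (5.58 to 21.5) for those missing there, and 13.9% (7.96 to 23.2) for those kept in rescue and 7.89% (4.21 to 14.3) for those missing there. Outside the segment it was 11% of those kept in deletion and 18.4% of those missing, and 10.4% of those kept in rescue and 16.2% of those missing.

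Over all 258 sites, 188 were in deletion, 97 in rescue and 192 in WT, and gene lists are read against these counts. Sites within 10 kb of a histone gene numbered 7 for 55 genes, and 6 were in deletion, 5 in rescue and 7 in WT. Beside H1-2, a linker histone gene, the stronger of 2 sites had 8.49 in deletion, 7.15 in rescue and 18.8 in WT. Beside H2BC5 the values were 7.50 in deletion, 5.21 in rescue and 8.88 in WT. At a site inside HFE, 6273 bp from H4C3, they were 6.84 in deletion, 6.92 in rescue and 8.92 in WT. The site missing from both edited lists was the weakest, 241 bp from H3C6, with 2.30 in WT.

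The 26 to 28 Mb window as a whole held 25 deletion, 9 rescue and 24 WT summits. Of its WT summits, 16 were kept in deletion, 66.7% (46.7 to 82.0), and 8 in rescue, 33.3% (18.0 to 53.3). The 26 Mb before it kept 67.7% in deletion and 41.9% in rescue. The window was itself uneven. From 26 to 27 Mb, 6 of 13 WT summits were kept in deletion and 5 in rescue. From 27 to 28 Mb, 10 of 11 were kept in deletion and 3 in rescue. A run of 10 consecutive WT summits missing in rescue, chr6:26223937-27161939, had 8 of them below 27 Mb and 2 above. Of these, the WT summit at chr6:26596583 had a rescue summit at chr6:26596031 and a deletion summit at chr6:26596030. Both lay just beyond the matching distance of 500 bp, so a wider distance would break the run.

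Sites within 10 kb of a tRNA gene numbered 17, of which 13 were in deletion, 3 in rescue and 10 in WT. The strongest, 1121 bp from TRV-AAC1-5, had 41.6 in deletion, 8.90 in rescue and 32.1 in WT. TRQ-CTG1-2 had 11.2 in deletion and 5.71 in WT, and TRV-AAC3-1 had 7.81 in deletion and 5.08 in WT, both with no rescue summit. Histone and tRNA genes have near-identical copies, and how reads that fit several copies were placed is not given in the sources used here. Zinc finger and SCAN domain genes had 4 sites, of which 4 were in deletion, 1 in rescue and 3 in WT. The 2 sites of SLC17 transporter genes, both at SLC17A1, had deletion and WT summits, and 1 of them a rescue summit.

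Developmental regulators had 14 sites within 10 kb, of which 10 were in deletion, 5 in rescue and 11 in WT. FOXC1 had 14.4 in deletion, 7.26 in rescue and 8.66 in WT, and RREB1, a zinc finger transcription factor gene, had 14.9 in deletion, 3.13 in rescue and 10.5 in WT. TFAP2A, a regulator of neural crest and epidermis, held a WT summit alone, with 5.33, and had sites 10173 bp away, with 2.72 in deletion and 7.03 in WT, and 15624 bp away, with 8.81 in deletion, 6.66 in rescue and 5.22 in WT. At EDN1, 3 sites were in deletion and WT, and 1 of them, with 11.3 in deletion, 8.20 in rescue and 7.52 in WT, was also in rescue.

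A list drawn up for replication and the cell cycle had 10 sites, but 7 of them lay at CDKAL1, KIF13A and RPP40, whose other roles are given above, so its count is not read as one of those processes. The remaining 3 lay at GMNN and E2F3. GMNN, which encodes geminin, the inhibitor of the licensing factor CDT1, had a site 7845 bp away with 5.55 in deletion, 5.21 in rescue and 8.86 in WT. E2F3, a transcription factor of S phase entry, had 4.12 in deletion and 2.56 in WT at one site and 1.33 in WT alone at another. Chromatin factor genes had 15 sites, of which 12 were in deletion, 6 in rescue and 11 in WT, but 10 of the 15 lay at ATXN1, whose product is a transcriptional corepressor. JARID2, a partner of Polycomb repressive complex 2, had 3 sites in deletion and WT, none of them in rescue, and 1 in rescue alone. Clade B serpin genes had 3 sites, of which 2 were in deletion, 2 in rescue and 3 in WT. The 6 butyrophilin genes had 0 sites within 10 kb. Of the 16 olfactory receptor genes, 14 lie beyond the last summit of the segment, as do all 3 MHC class I genes and 43 of the 140 tRNA genes, in a stretch that was not analysed, so nothing is read from their lack of sites.

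At the segment's upper limit the lists as used here hold no summit from chr6:28383686 to chr6:33571150, a stretch of 5187464 bp, the one not analysed. The last sites inside were at ZSCAN31, with 34.0 in deletion, 10.2 in rescue and 17.0 in WT, and at ZSCAN12, with 13.3 in deletion and 5.08 in WT. The first outside lay near BAK1, a pro-apoptotic BCL2 family gene, with 2.93 in deletion alone, followed by a site with 7.99 in deletion, 6.65 in rescue and 8.70 in WT. The last window inside, from 25 to 30 Mb, kept 75.0% of its WT summits in deletion and 41.7% in rescue. The first window outside, from 30 to 35 Mb, kept 90.0% and 85.0%, so the values differed across this stretch with no summit to place the limit more closely.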

How the data were processed

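Per the submitters' processing notes, the build was hg38 and the tools were MACS2 (no version given), SAMtools 1.12, Bowtie2 2.2.9 and FastQC 0.11.5. How peaks were called, and whether against IgG, is not given in the sources used here. Each genotype and antibody has 1 list that the authors deposited, with 1 summit base per peak and its −log10 q, unscaled between lists. The lowest CTCF values, 1.30 to 1.31, lie at the −log10 of 0.05. Depth is unknown. The deposited up and down lists give region ends only.

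Summits, in 1-based coordinates, were matched within 500 bp, which also joined summits into 34769 sites genome-wide. Values were turned into percentiles within their list. Shares have 95% Wilson intervals, and ratios of counts have intervals from the Wilson interval of the share of one list. A site took the protein-coding gene that holds it, or the nearest within 50 kb. Genes (59096, with 696 entries on other scaffolds left out) and promoter sequences came from RefSeq tables of GRCh38.p14. Cytogenetic bands were not used here, and windows of 1, 5 and 10 Mb took their place.

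The segment, the gene lists and the rule for named sites were chosen with earlier results of these data known. The rule names up to 8 sites per pattern by value, every deposited down site, up to 4 sites per gene list and pattern, and the 6 genes with most sites. Genes without a site in an edited list, WT summits of the strongest class, long runs and the FAM50B promoter were picked after their values were seen. Alternatives were other matching distances, −log10 q minimums, equal list lengths and other limits of the segment. Matching was tested on simulated data. The tools were matplotlib 3.10.9, SciPy 1.17.1, pandas 2.3.3, NumPy 2.4.6 and Python 3.11.15.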

Additional observations from a re-analysis of the deposited data

How the results depend on the processing

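Of 71 alternative values, 44 stayed within their interval or 1.5 times the count and 27 moved. The segment stood below the neighbour in 9 of 9 settings for both shares kept, in 8 of 8 for both ratios, in 9 of 9 for rescue summits without WT, and in 8 of 9 for deletion summits without WT. The exception was −log10 q of at least 10, with 16.3% in the segment and 7.32% in the neighbour. Shares of WT summits kept in deletion were 45.6% at 100 bp, 81.2% for −log10 q of at least 5, 89.1% for at least 10 and 40.4% at equal list lengths. Kept in rescue they were 28.0% at 100 bp, 53.9% for at least 5 and 82.6% for at least 10. Without a WT summit were 53.4% of deletion summits at 100 bp, 19.7% for at least 5, 16.3% for at least 10 and 17.2% at equal lengths. Of rescue summits they were 44.9% at 100 bp, 5.88% for at least 5 and 0 of 13 for at least 10. Deletion over WT was 0.482 at equal lengths (1.11 in the neighbour), and rescue over WT was 0.283 for at least 10. At 100 bp there were 44 sites in all 3 lists, 13 in rescue and WT, 81 in deletion only, 25 in rescue only and 88 in WT only. At equal lengths there were 45 in all 3, 32 in deletion and WT, 5 in deletion and rescue, 27 in rescue and WT, 11 in deletion only and 88 in WT only. Fewer summits entered under a minimum or at equal lengths. The causes of the other moves were not tested. No paired analysis was possible because the lists do not name replicates, which also prevented leaving 1 out. A missing summit means that none was called, not that CTCF was absent, since the lists give no signal between summits and no depth.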
